A study of Mus musculus with 22 samples.

Results

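All 22 libraries of the series were pooled to ask which transcripts differed between dominant and submissive mice in the same direction in both sexes. They came from 11 cages, 7 of males and 4 of females, and each cage gave 1 dominant and 1 submissive mouse, so that 11 dominant mice were set against 11 submissive ones. The labels spell the strain of every mouse as C57B6/J OlaHsd. The paper's spelling has BL in place of B and puts the slash directly after BL. Total RNA of the right brain hemisphere was sequenced. Rank was read from the tube test at 10 to 12 weeks of age, in cages of 4 mice in which each pair of cage mates met 3 times in a narrow tube and the mouse pushed out lost. The brains were taken 3 to 4 days later, both cage mates at once. The labels name no transgene or drug. The cage was read from the library names, which carry cage numbers for 9 pairs and the group names Gr1 and Gr2 for female cages 3 and 4. Some new groups had been formed from female mice of middle rank and tested afresh, and whether Gr1 and Gr2 are those groups is not given in the sources used here.

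Social rank in mice orders access to food, space and mates within a cage. Losing encounters repeatedly can be a stressor that acts through the hypothalamic-pituitary-adrenal axis and its corticosteroid receptors. In these mice the paper reported higher serum corticosterone in dominant than in submissive males, and in submissive than in dominant females. Neurons answer recent activity with immediate-early genes such as Fos, Arc and Egr2, transcription factors and synaptic proteins whose transcripts appear within minutes of stimulation. Monoamine neurons of the brainstem, which make serotonin and noradrenaline, and hypothalamic peptide neurons are long-studied carriers of social behaviour. A hemisphere mixes all of these cells, so that a transcript confined to a small nucleus is diluted, and fewer cells of a type and less RNA per cell cannot be told apart.

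Between 12403943 and 16488762 reads per library were counted on genes (median 14948109), with similar ranges in dominant mice (12403943 to 16488762) and submissive mice (12851198 to 16462771). Ddx3y, a gene of the Y chromosome, had 1887 to 2539 counts in every male library and 0 in every female library, and Xist, the RNA that coats the inactive X chromosome, had 4886 to 6264 counts in females and 0 to 3 in males, so the sex labels held. Male and female libraries were deposited in separate tables and carry different project names, so sex, table and project cannot be told apart, and the cage term removed all of them together. Markers of cortical layers (10 of 10 passed the expression filter), myelin (10 of 10) and astrocytes (8 of 8) were all measured. One library stood apart: the dominant mouse of male cage 1 had 0 counts of Pcp2, a Purkinje cell transcript, which allows up to 0.211 CPM (reads of the gene per library, set to a common depth), while no other library had fewer than 254 counts. The submissive mouse of female cage 3 held 179 counts of the pituitary hormone Prl and 62 of Gh, and none of the 8 pituitary genes passed the filter.

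No gene was called different between the ranks over the 11 cages. Of 15233 genes tested with edgeR's quasi-likelihood test with cage as a block and Benjamini-Hochberg adjustment, 0 had an adjusted p under 0.05 (0.0%) and the smallest adjusted p was 0.9997. At an unadjusted p under 0.05 there were 424 genes (2.78%), 202 of them higher (1.33%) and 222 lower (1.46%) in dominant mice. The balance was 272 higher and 185 lower with the GC content trend removed, 267 and 203 with the exon length trend removed, 328 and 287 with equal weight of the tables, and 40 and 61 at a mean count of at least 500. DESeq2 and limma-voom with the same block also called 0 genes, with 86 and 428 genes at an unadjusted p under 0.05. An exact paired permutation test over the rank exchanges within cages, two-sided, gave a p under 0.05 for 514 genes (3.37%), and its smallest possible p was 0.000977. Both 2.78% and 3.37% lie below the share of 0.05 that the threshold gives on average where no gene differs.

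The intervals of the pooled effect bound how large a common difference could be. The median standard error of a log2 fold change was 0.045, and the 95% interval lay wholly within 0.5 on the log2 scale either way for 14202 of 15233 genes (93.2%) and within 0.25 for 11873 (77.9%). Among the 10332 genes with a mean of at least 10 CPM, the interval of 98.6% stayed within 0.25. These limits concern an effect common to the 11 cages. Effects that differ between cages or sexes add to the residual spread of this fit.

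The variance of each gene was split between the tables, the cages of a table, rank and the residual. For the median gene, 14.01% of the variance of log2 CPM lay between the tables, 41.08% between cages of a table, 1.19% followed rank and 32.07% was residual. Of the 21 degrees of freedom, cages held 9 (42.9%), the residual 10 (47.6%) and the tables and rank 1 each (4.76%), and the mean share of rank over genes was 2.88%. The 16 immediate-early genes had a median of 64.16% between cages and 2.26% for rank. Fos had 89.57% of its variance between cages and 2.1% with rank, and Arc 82.78% and 7.17%.

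After removal of each cage's mean, the leading component of rlog values over the 500 genes most variable within cages took up 57.7% of the variance, of which rank accounted for 4.89% (exact paired permutation test, two-sided, p = 0.525 over 11 cages). The dominant mouse had the higher score in 7 of 11 cages. The heaviest genes of the component were Fat2, Gabra6, Cbln3, Car8 and Pcp2, all transcripts of cerebellar granule or Purkinje cells, and the largest dominant minus submissive difference, 8.13, belonged to male cage 1, whose dominant mouse lacked Pcp2 counts. Without this cage, rank explained 0.0369% of the component (p = 0.949 by the same exact test).

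The 11 within-cage contrasts resembled one another little. Over 14253 genes with a mean of at least 1 CPM, the SD of the log2 difference between the cage mates was 0.343 in male cage 1 and 0.197 to 0.24 in the other cages. In male cage 1, 149 genes were more than 1 log2 unit lower and 20 more than 1 log2 unit higher in the dominant mouse, whereas in the other 10 cages 9 to 31 genes were that much higher and 16 to 51 that much lower. Across genes, the differences of a pair of male cages had a median correlation of -0.026 (21 pairs, -0.296 to 0.248), of a pair of female cages 0.058 (6 pairs, 0.001 to 0.174) and of a male with a female cage 0.003 (28 pairs, -0.196 to 0.118). Genes are not independent replicates, and library depth and RNA composition are shared by all genes of a cage, so these values are a description.

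The separate tables gave effects that did not run together. Over 14669 genes tested in both, the log2 fold change of rank in males and in females had a Pearson correlation across genes of -0.05 and a Spearman correlation of -0.091, and 45.4% of genes had the same sign in both. With the cage block, the male table alone called 0 of 14737 genes (0.0%; 2.29% at an unadjusted p under 0.05) and the female table alone 36 of 14865 (0.242%; 10.3%), of which 27 were higher and 9 lower in dominant females. The difference between the tables was not tested here. The log2 difference between cage mates leaned on exon length in the 4 female cages, with slopes of 0.0042 to 0.0402 per doubling of length, against -0.0259 to 0.0316 in the 7 male cages, and over all 11 cages the mean slope was 0.0027 (exact paired permutation test, two-sided, p = 0.706). Its part in the female calls was not tested here.

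**Figure D1:**
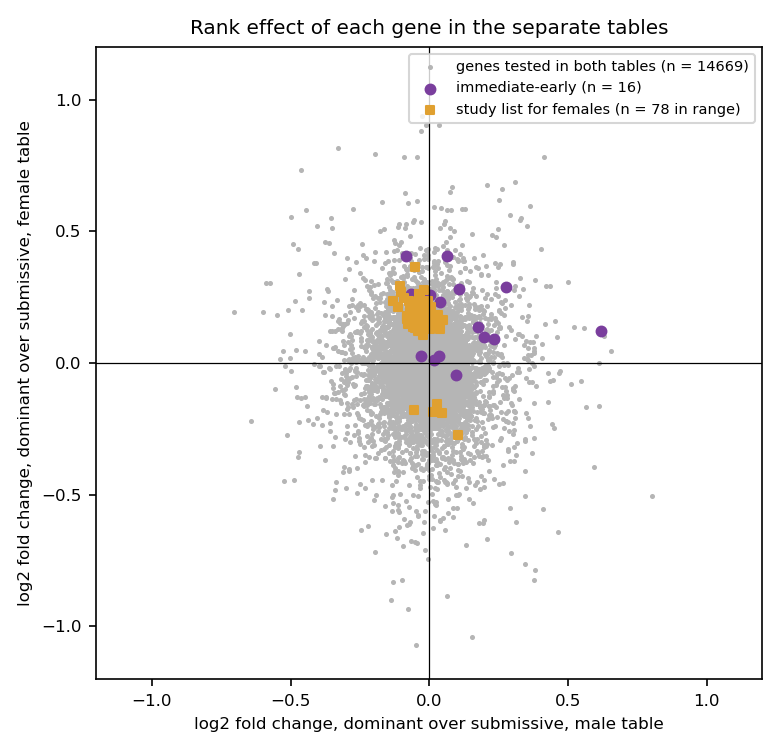
Each point is 1 gene, with the log2 fold change of dominant over submissive mice in the male table on the horizontal axis and in the female table on the vertical axis, both from edgeR with the cage block; purple circles are the 16 immediate-early genes, orange squares the genes the study listed for females, and 3 genes outside the axes are not drawn. The cloud shows no shared slope (Pearson -0.05 across 14669 genes), the orange squares lie off 0 along the female axis, and the purple circles lie mostly to the upper right of the origin.

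Genes with 1 sign in every cage were rare. The dominant mouse was higher in all 11 cages for 4 genes (0.0263%) and lower in all 11 for 7 genes (0.046%). The 4 higher genes were 1700047M11Rik, Ints7, a subunit of the Integrator complex that cleaves small nuclear RNAs, Cln8, an endoplasmic reticulum protein whose loss causes a neuronal ceroid lipofuscinosis, and an X-linked gene listed under a date. The 7 lower genes were Adra2a, Cth, Scly, Unc13d, Tnfsf13b, Prdx4 and Fbxw17. Each reached the smallest p the exact paired test can give (0.000977, adjusted p = 1.00 over all genes), which follows from their shared sign. It is also the probability that a gene without a rank effect has 1 sign in all 11 cages. The 11 genes found among 15233 were no more than that probability gives.

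Adra2a encodes the alpha-2A adrenergic receptor, the autoreceptor that restrains noradrenaline release, and lies on chromosome 19 at 54045182 to 54048982 (GRCm38). It measured 4.82 to 6.77 CPM (median 5.86) in dominant males and 5.69 to 8.41 CPM (median 6.71) in submissive males. The dominant females had 7.12, 7.17, 8.38 and 8.96 CPM against 8.13, 8.76, 8.68 and 9.0 CPM in their cage mates. The groups overlapped in both sexes, and the difference appeared within cages, from -0.37 to -0.01 on the log2 scale. The pooled log2 fold change was -0.19 ± 0.06 (SE, 95% interval -0.31 to -0.08, edgeR adjusted p = 1.00).

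Cth, the cystathionine gamma-lyase that makes cysteine, showed little overlap between the ranks. Dominant males had 3.61 to 4.57 CPM (median 3.95) and submissive males 4.32 to 5.17 CPM (median 4.85). Dominant females had 4.35, 4.7, 3.93 and 3.99 CPM, and submissive females 4.79, 4.88, 4.67 and 5.25 CPM. Only the dominant female of cage 2, at 4.7 CPM, lay above the lowest submissive female. Its pooled log2 fold change was -0.23 ± 0.07 (SE, edgeR adjusted p = 1.00).

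The other lower genes have unrelated functions. Scly, a selenocysteine lyase that recycles selenium, had a pooled log2 fold change of -0.17 ± 0.05 (SE) and Prdx4, a peroxiredoxin of the endoplasmic reticulum, one of -0.09 ± 0.04. Unc13d, a priming factor of granule exocytosis in lymphocytes, stood at -0.41 ± 0.11 and Tnfsf13b, the B-cell survival factor BAFF, at -0.33 ± 0.10. Unc13d was a low transcript, at 0.924 to 2.65 CPM in males. Fbxw17, an F-box protein, stood at -0.10 ± 0.05, with a 95% interval of -0.21 to 0.00. Among the higher genes, 1700047M11Rik, an uncharacterised locus on chromosome 1, had 0.27 ± 0.07, Ints7 0.09 ± 0.03 and Cln8 0.08 ± 0.03. None passed adjustment over all genes with edgeR (adjusted p = 1.00 for each).

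The 10 smallest p values among higher genes belonged to Xist, Zfp57, Arc, Egr2, C430049B03Rik, 1700047M11Rik, Lmo2, Ypel2, Ints7 and E2f5. For Xist the pooled value (0.22 ± 0.05, edgeR adjusted p = 1.00) came from the females alone, since males had at most 3 counts. Dominant females had 395, 358, 395 and 387 CPM of Xist and submissive females 308, 340, 332 and 335 CPM, so the female groups did not overlap, and the female table alone gave 0.22 (edgeR adjusted p = 0.0285).

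Zfp57, a zinc finger protein that keeps methylation at imprinted loci, was higher in the dominant mouse of 10 of 11 cages. It measured 4.54 to 8.81 CPM (median 6.69) in dominant males and 3.69 to 6.68 CPM (median 5.45) in submissive males. Dominant females had 5.93, 5.37, 5.5 and 4.84 CPM and submissive females 4.73, 4.44, 3.75 and 4.71 CPM, without overlap. The pooled log2 fold change was 0.26 ± 0.07 (SE, exact paired permutation p = 0.00391, adjusted p = 1.00 with this test and with edgeR), with 0.24 in the male table and 0.28 in the female table. The low-count locus C430049B03Rik on the X chromosome stood at 0.56 ± 0.16, Lmo2, a cofactor of blood and vessel transcription factors, at 0.16 ± 0.04, E2f5, a cell-cycle repressor, at 0.13 ± 0.04, and Ypel2 at 0.10 ± 0.03, each in 10 of 11 cages.

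The 10 smallest p values among lower genes belonged to Dnah10, Unc13d, Dlec1, Hist1h1e, Dnah6, Fbxl13, Scly, Cth, Adra2a and Polg2. Dnah10 and Dnah6 encode axonemal dynein heavy chains, the motors of motile cilia. Dnah10 was at 3.11 to 4.52 CPM (median 3.72) in dominant males and 3.04 to 7.46 CPM (median 4.35) in submissive males. Dominant females had 2.52, 3.32, 3.01 and 2.48 CPM and submissive females 3.21, 4.57, 5.26 and 4.53 CPM. The groups overlapped in both sexes, and the dominant mouse was lower in 9 of 11 cages. The pooled log2 fold change was -0.38 ± 0.10 (SE, exact paired permutation p = 0.00781, adjusted p = 1.00 with this test and with edgeR), that of Dnah6 -0.19 ± 0.05, of Dlec1 -0.39 ± 0.11 and of Fbxl13 -0.64 ± 0.18. Hist1h1e, a linker histone, stood at -0.14 ± 0.04 and Polg2, the accessory subunit of the mitochondrial DNA polymerase, at -0.25 ± 0.07. Of 8 ependymal cilia genes fixed as markers, among which Dnah10, Dnah6, Dlec1 and Fbxl13 do not figure, 0 passed an unadjusted p under 0.05 and all 8 had a negative log2 fold change, with a median of -0.08 against 0.002 for all genes, and medians of -0.02 in males and -0.33 in females.

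**Figure D2:**
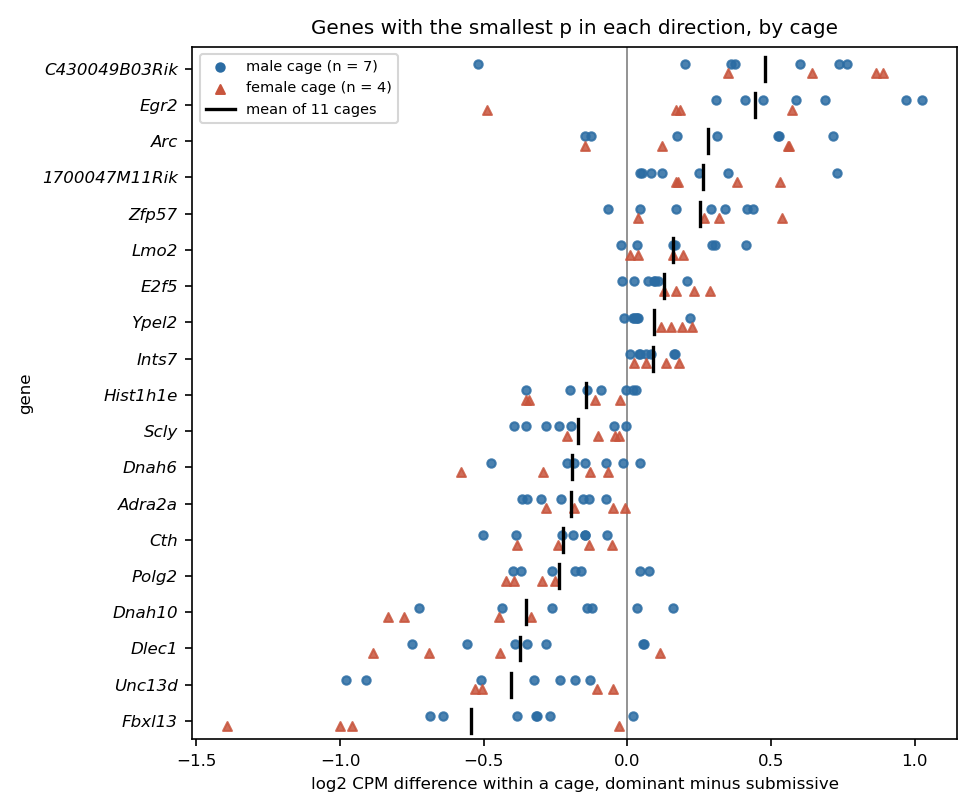
Rows are the genes with the smallest edgeR p in each direction (Xist, near 0 in males, is left out), and each symbol is the log2 CPM difference between the dominant and the submissive mouse of 1 cage, blue circles for the 7 male cages, red triangles for the 4 female cages, black bars for the mean of the 11. For Adra2a the symbols span -0.37 to -0.01, all on the submissive side, and for Arc they span -0.15 to 0.71, with 8 of 11 above 0.

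Among the lists, the immediate-early genes held the largest share of members at an unadjusted p under 0.05. All 16 were tested, none passed adjustment over all genes, and 8 had an unadjusted p under 0.05, all 8 of them higher in dominant mice, beside 1.33% of all genes. The list median was 0.13 on the log2 scale, against 0.002 for all genes, with 0.05 in the male table and 0.14 in the female table. Egr4 was at 0.00 and the other 15 lay above 0. The list was chosen with earlier results of these data known, and the members respond to the same stimuli, so their counts are not independent.

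Arc, a synaptic protein that governs removal of AMPA receptors (chromosome 15, 74669081 to 74672570, GRCm38), was at 50.4 to 130.0 CPM (median 92.2) in dominant males and 41.8 to 132.0 CPM (median 56.2) in submissive males. Dominant females had 67.5, 62.8, 161.0 and 94.1 CPM, and submissive females 62.0, 69.5, 109.0 and 63.6 CPM. The groups overlapped, and the 2 females of cage 3 were the highest of their groups. Within cages the dominant mouse was higher in 8 of 11, and the pooled log2 fold change was 0.28 ± 0.07 (SE, 95% interval 0.13 to 0.43, exact paired permutation p = 0.0205, adjusted p = 1.00 with this test and with edgeR), with 0.28 in males and 0.29 in females.

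Egr2, a zinc finger transcription factor of activated neurons and Schwann cells (chromosome 10, 67537869 to 67542188, GRCm38), was the member with the largest fold change. It was at 2.03 to 6.41 CPM (median 3.84) in dominant males and 0.926 to 5.15 CPM (median 2.75) in submissive males. Dominant females had 4.41, 2.59, 6.29 and 4.32 CPM and submissive females 3.91, 3.69, 5.53 and 2.86 CPM. The dominant mouse was higher in all 7 male cages, by 0.31 to 1.03 on the log2 scale, and in 3 of 4 female cages, and female cage 2 went the other way at -0.49. The pooled log2 fold change was 0.41 ± 0.11 (SE, exact paired permutation p = 0.00879, adjusted p = 1.00 with this test and with edgeR), with 0.62 in males and 0.12 in females.

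Of the AP-1 members, Junb stood at 0.18 ± 0.07 (SE), Fos at 0.16 ± 0.08 and Fosl2 at 0.12 ± 0.05, while Fosb at 0.14 and Jun at 0.02 had an unadjusted p above 0.05. Egr1 stood at 0.20 ± 0.09, from 0.06 in the male table and 0.41 in the female table (edgeR adjusted p = 0.0367 in females). The nuclear receptor Nr4a1 stood at 0.18 ± 0.07 and the MAP kinase phosphatase Dusp1 at 0.16 ± 0.07. The within-cage median over the 16 genes was 0.39 in female cage 4, 0.34 in male cage 2 and 0.30 in male cage 5, and it was below 0 in female cage 2 (-0.17), male cage 6 (-0.16) and male cage 7 (-0.04). The count of 8 members depended on the design and the tool: 0 passed without the cage block, 2 with the 9 numbered cages only, 2 without male cage 2, 3 without female cage 4, 4 without male cage 5 and 5 without female cage 1 or female cage 3. With the cage block, 5 passed with DESeq2 and 6 with the robust prior. The list median stayed above 0 in each (0.05 to 0.13).

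**Figure D3:**
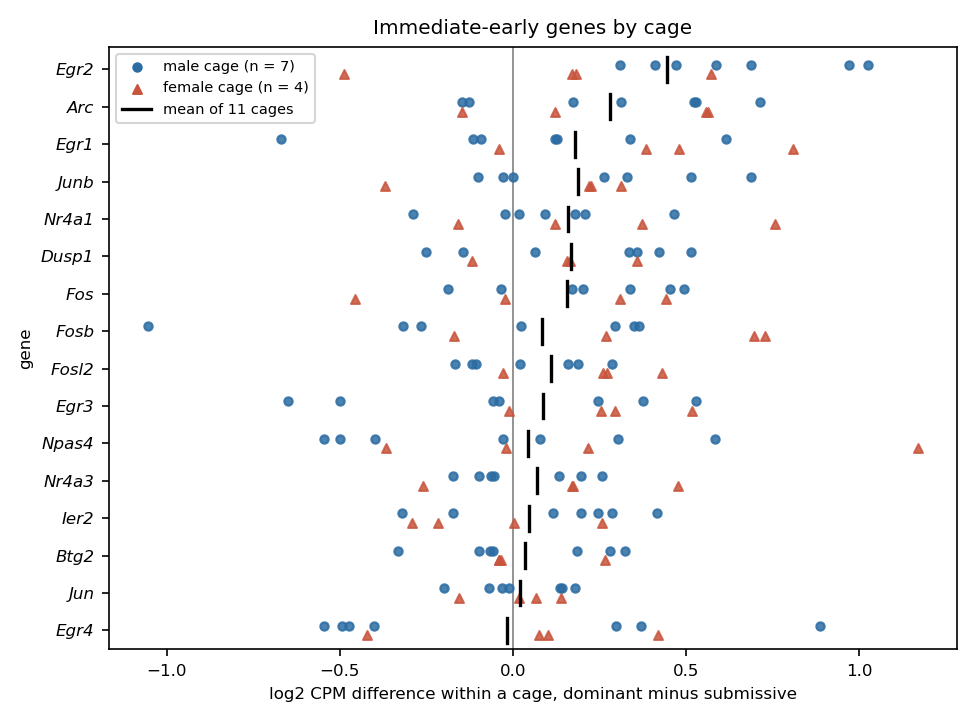
Rows are the 16 immediate-early genes ordered by pooled log2 fold change, and each symbol is the log2 CPM difference between the dominant and the submissive mouse of 1 cage, blue circles for the 7 male cages, red triangles for the 4 female cages, black bars for the mean of the 11. All 7 blue circles of Egr2 lie between 0.31 and 1.03, and for genes lower in the plot the symbols fall on both sides of 0.

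The start regions of 4 members are shown because these genes lay on the same side, and letters known from promoters of activity-dependent genes were searched in them. RefSeq windows of 250 bases before to 50 bases after the start were on hand for 12 of 16 members (not for Arc). Letters were searched on both strands: the cyclic AMP response element (CRE), TGACGTCA, its core TGACG, the CArG box bound by serum response factor, and the TATA box TATAAA. Capitals mark matches in the windows below, read 5′ to 3′ on the gene's strand from GRCm38.p6, at chr10:67537316-67537615 for Egr2 (plus strand), chr12:85473640-85473939 for Fos (plus), chr8:84978699-84978998 for Junb (minus) and chr17:26508423-26508722 for Dusp1 (minus). Egr2 has 5 windows, and the one shown was chosen because it holds a CArG box. It belongs to a RefSeq start upstream of the gene start given above.
Egr2: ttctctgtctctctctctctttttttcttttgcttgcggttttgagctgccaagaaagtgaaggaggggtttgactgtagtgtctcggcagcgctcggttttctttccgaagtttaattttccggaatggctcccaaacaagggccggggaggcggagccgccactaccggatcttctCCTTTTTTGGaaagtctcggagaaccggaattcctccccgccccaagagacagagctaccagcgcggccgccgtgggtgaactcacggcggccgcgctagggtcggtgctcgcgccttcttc
Fos: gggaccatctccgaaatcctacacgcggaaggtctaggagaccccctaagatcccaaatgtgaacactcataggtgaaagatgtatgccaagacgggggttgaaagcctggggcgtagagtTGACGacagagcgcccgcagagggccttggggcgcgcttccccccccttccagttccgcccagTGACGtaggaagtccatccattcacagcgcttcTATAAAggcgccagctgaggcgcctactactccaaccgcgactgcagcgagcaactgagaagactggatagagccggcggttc
Junb: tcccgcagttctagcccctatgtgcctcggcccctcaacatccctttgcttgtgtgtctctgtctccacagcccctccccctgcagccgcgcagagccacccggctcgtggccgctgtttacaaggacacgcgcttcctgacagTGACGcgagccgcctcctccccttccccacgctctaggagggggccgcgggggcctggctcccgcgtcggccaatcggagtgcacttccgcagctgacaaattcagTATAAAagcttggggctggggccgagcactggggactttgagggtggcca
Dusp1: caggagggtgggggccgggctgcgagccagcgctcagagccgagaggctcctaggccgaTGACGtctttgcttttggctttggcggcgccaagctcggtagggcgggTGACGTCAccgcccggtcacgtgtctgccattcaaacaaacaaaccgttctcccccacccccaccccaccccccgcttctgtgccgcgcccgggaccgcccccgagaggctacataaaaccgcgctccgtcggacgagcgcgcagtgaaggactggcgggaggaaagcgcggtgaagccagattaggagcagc

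A CArG box occurred in 1 of the 12 members with a window, Egr2, and in 1.81% of all 27025 genes. The Egr2 window was chosen for this box, so its match was fixed in advance. The Dusp1 window holds a full CRE and a separate core. A full CRE occurred in 2 of the 12 members and in 2.03% of all genes. The Fos window has 2 cores and a TATA box and the Junb window 1 core and a TATA box. The core, which a full CRE also contains, occurred in 10 of the 12 members with a window and in 23.0% of all 27025 genes, and the TATA box in 2 of 12 and in 15.7%. These matches describe letters and do not show that a factor was bound.

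Lists of stress, interferon, synaptic, m6A, clock and cholesterol genes had pooled medians from -0.008 to 0.07. Their counts at an unadjusted p under 0.05 stand beside 1.33% of all genes higher and 1.46% lower. Of 12 genes of the stress axis and steroid receptors, Nr3c1, the glucocorticoid receptor, stood at 0.05 ± 0.02 (SE) and Nr3c2, the mineralocorticoid receptor, at 0.06 ± 0.03, both under 0.05 without adjustment (edgeR adjusted p = 1.00), and the list median was 0.006. Among 16 glucocorticoid-induced genes the median was -0.008 and 1 had an unadjusted p under 0.05, the lipid droplet gene Plin4 at -0.31 ± 0.12. Among 12 interferon-stimulated genes the median was 0.07, with Oasl2 at 0.31 ± 0.11 and Ifitm3, a membrane protein that blocks viral entry, at 0.22 ± 0.07 and higher in the dominant mouse of 10 of 11 cages. Lists of glutamate receptors (22 tested, median 0.02), GABA synapses (18, 0.004), active zones (14, 0.008), m6A machinery (16, 0.002), clock genes (16, 0.02) and cholesterol synthesis (19, -0.001) held at most 1 member at an unadjusted p under 0.05, the m6A writer subunit Wtap at 0.07.

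Several of these pooled medians came from separate tables that lay on opposite sides of 0. Of 19 cholesterol synthesis genes 17 were positive in males (median 0.03) and 2 in females (-0.08), with 5 lower at an unadjusted p under 0.05 in females (4.01% of all genes) and 1 called (0.0605%), Insig1, which retains the sterol sensor in the endoplasmic reticulum, at -0.19 (edgeR adjusted p = 0.0427). Of 14 active zone genes 2 were positive in males (-0.02) and 12 in females (0.07), where 6 were higher before adjustment (6.33% of all genes) and the scaffolds Pclo at 0.27 and Bsn at 0.29 were called (0.182%; edgeR adjusted p = 0.0199 and 0.0285). Of 22 glutamate receptor genes 7 were positive in males (-0.02) and 20 in females (0.05), where 5 were higher before adjustment and Grin2b was called. Of 16 glucocorticoid-induced genes 11 were positive in males (0.01) and 2 in females (-0.07). In females 4 of them were lower and 1 higher before adjustment (4.01% and 6.33% of all genes). All 8 voltage-gated calcium channel genes were tested, with 6 positive over all cages (median 0.03) and 0 at an unadjusted p under 0.05. Of these 0 were positive in males (-0.06), with 2 lower (1.24% of all genes), and 8 in females (0.15), with 7 higher before adjustment and Cacna1e called. Of 8 nuclear long non-coding RNAs 7 were positive over all cages (0.03), with Xist the only one past an unadjusted p under 0.05. In males 0 of 7 were positive (-0.04) and in females 8 of 8 (0.16), where 6 were higher before adjustment, and Xist and the small nucleolar RNA host transcript Snhg11 (0.19, edgeR adjusted p = 0.0394) were called. Of 7 oligodendrocyte precursor genes 3 were positive (-0.02), and 0 had an unadjusted p under 0.05. The difference between the tables was not tested for any of these lists.

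Lists of markers of brain regions differed in sign, beside 52.0% of all genes above 0, 1.33% higher and 1.46% lower at an unadjusted p under 0.05. All 11 striatal neuron genes had a positive log2 fold change, with a median of 0.05 and cage medians from -0.16 in female cage 2 to 0.21 in male cage 1, and 2 had an unadjusted p under 0.05, the phosphodiesterase Pde10a at 0.09 ± 0.04 (SE) and the retinoid receptor Rxrg at 0.13 ± 0.06. Of 10 cortical layer genes 9 were above 0 (median 0.04), with the layer 4 factor Rorb at 0.09 ± 0.04, and of 7 hippocampal subfield genes 5 were above 0 (median 0.03), with Fibcd1 at 0.08 ± 0.03. In the male table alone the medians of the cortical and hippocampal lists were 0.00 and 0.004. In male cage 1, whose dominant library was short of cerebellar transcripts, the cage medians of these lists were 0.19 and 0.14. The highest, 0.21 and 0.155, were in female cage 4. The part of male cage 1 in the striatal, cortical and hippocampal values was not tested. Of 7 thalamus genes 3 were above 0 (median -0.002), and of 5 olfactory bulb genes tested 0 were above 0 (median -0.11), with 0 of either list at an unadjusted edgeR p under 0.05. Of 8 genes of meninges and fibroblasts, 7 were below 0 (median -0.07), with Igf2, a growth factor, at -0.16 ± 0.06 and the collagen Col3a1 at -0.11 ± 0.05. Among 13 cold-inducible and heat shock genes the median was 0.007, with Cirbp, a cold-inducible RNA-binding protein, at -0.12 ± 0.05 and the chaperone Hspa5 at 0.10 ± 0.04. In the female table alone 2 members of this list were called lower (0.0605% of all genes were), Cirbp at -0.30 and Rbm3, another cold-inducible RNA-binding protein, at -0.27 (edgeR adjusted p = 0.036 and 0.0445), against -0.01 and 0.10 in the male table. Microglia (10 tested, median 0.03), myelin (10, 0.009), astrocytes (8, -0.02) and brain endothelium (9, -0.003) had 0 members at an unadjusted p under 0.05, and none of the genes in these lists passed adjustment in the pooled fit (edgeR).

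Of 8 serotonergic genes 6 were tested, 1 of them had a positive pooled log2 fold change, 2 were lower and 0 higher at an unadjusted edgeR p under 0.05 (1.46% of all genes were lower), and the median was -0.16. Without female cage 3 the median was -0.07, and with the 9 numbered cages only -0.06. The count of 2 became 1 without male cage 6 or female cage 1, 2 or 3, and 3 without male cage 1 or 5. It was 1 with DESeq2, the robust prior or no cage block, and 4 with equal weight of the tables, where the median was -0.24. Without the expression filter, over 8 genes, the median was -0.34. In males 4 of 6 were positive (median 0.02), with 1 higher (1.05% of all genes) and 0 lower before adjustment. In females 0 of 6 were positive (median -0.51), with 4 lower before adjustment (4.01% of all genes) and 3 after it (0.0605%). Slc6a4, the serotonin transporter, had a pooled log2 fold change of -0.74 ± 0.24 (SE) and Tph2, the enzyme that makes serotonin in neurons, -0.61 ± 0.26, with an edgeR adjusted p of 1.00 for both. Dominant females had 7.69, 5.0, 1.9 and 2.62 CPM of Tph2 and submissive females 20.5, 15, 17.8 and 5.84 CPM, lower in the dominant mouse of each cage. Dominant males had 4.78 to 22.7 CPM (median 9.06) and submissive males 2.21 to 22.7 CPM (median 16.2), with differences from -1.56 in male cage 6 to 1.97 in male cage 5. In the female table alone Tph2 was at -1.78 and Slc6a4 at -1.80 (edgeR adjusted p = 8.96e-05 and 0.00759), and in the male table at -0.08 and -0.33 (adjusted p = 1.00 for both).

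Lists of other deep brain cells shared a cage with these values. Female cage 3 gave the lowest cage median of the serotonergic list (-1.15), the hindbrain and spinal list (-1.97), the hypothalamic and arousal peptides (-0.72), the ependymal cilia genes (-0.61) and the catecholamine neuron list (-0.49), and its submissive library held the 179 counts of Prl given above. In the other 3 female cages the hindbrain medians were 0.41, 0.53 and 0.01 and the serotonergic ones -0.52, -0.25 and -0.22. Without female cage 3 Tph2 was at -0.43 and Slc6a4 at -0.57. Summed hindbrain transcripts reached 3.27 to 11.2 CPM in dominant and 5.74 to 12.1 CPM in submissive females, and 8.74 to 23.4 and 8.17 to 29.6 CPM in males. Of 5 hindbrain genes tested 1 was positive over all cages (median -0.11) and 0 had an unadjusted edgeR p under 0.05. Only 2 of them passed the expression filter in the female libraries alone, so the cage medians of this list rest on low counts. Of 6 catecholamine neuron genes 3 were positive (median -0.02), and 1 was lower at that threshold, as were 1.46% of all genes, the midbrain transcription factor En1 at -0.50 ± 0.22 (SE). The part of these lists in the serotonergic values was not tested.

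Of 14 hypothalamic and arousal peptides tested, 4 were positive over all cages (median -0.09), and 1 was lower (1.46% of all genes) and 0 higher at an unadjusted edgeR p under 0.05. In the male table alone, 7 of 14 were positive (median 0.02), and in the female table alone, 1 of 14 (median -0.20), with 4 lower before adjustment (4.01% of all genes) and 1 after it (0.0605%). Cartpt, which restrains feeding and is the member lower in both counts, gave -0.40 ± 0.18 (SE) pooled, from -1.07 in females and -0.05 in males. Oxt, oxytocin, had the lowest value of the list, -0.41 ± 0.21, and the highest value of the list was 0.05.

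**Figure D4:**
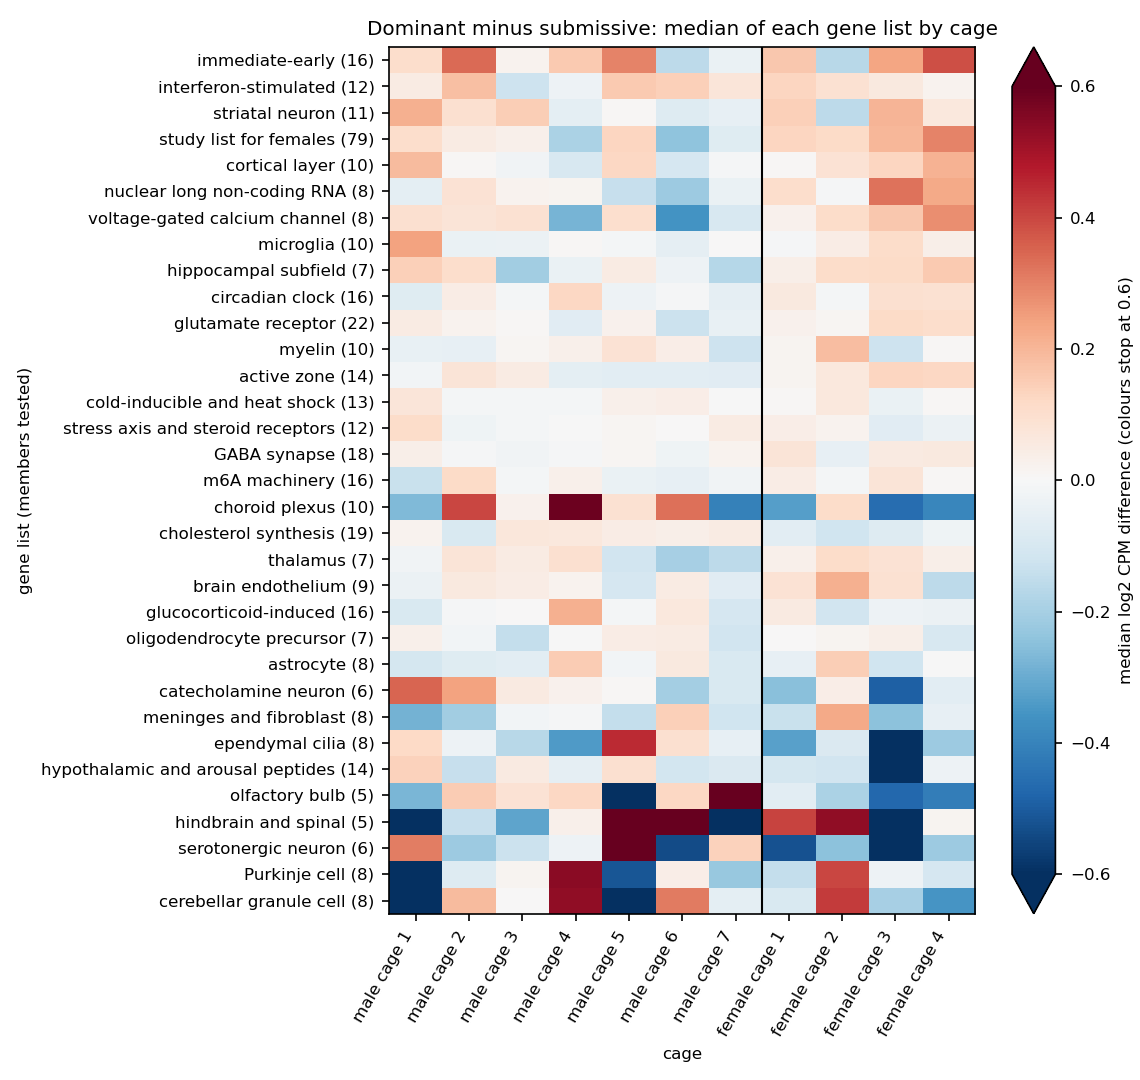
Rows are the gene lists, with the number of members tested in brackets and ordered by pooled median log2 fold change, columns are the 11 cages with males left of the black line, and colour is the median log2 CPM difference of the list between dominant and submissive mouse, red where the dominant mouse was higher. The top row, the immediate-early genes, is above 0 in 8 of 11 cages, and the dark blue cells at the bottom of the column of male cage 1 are the cerebellar lists at -2.54 and -2.51.

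Cerebellar transcripts followed male cage 1. All 8 Purkinje cell genes and all 8 granule cell genes had a negative pooled log2 fold change, with medians of -0.17 for both lists, and 0 of either passed an unadjusted p under 0.05. Without male cage 1 the medians were -0.01 and 0.009. Summed granule cell transcripts reached 85.7 to 843 CPM in dominant males and 487 to 772 CPM in submissive males. Pcp2 stood at -0.21 ± 0.22 (SE) over all cages and at -0.04 without male cage 1, and Cbln1, a granule cell synaptic organiser, at -0.21 ± 0.16 and -0.05. Atp2a3 (-0.19), Ppp1r17 (-0.18) and Homer3 (-0.15), other Purkinje cell transcripts the study named, lay in the same range.

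Choroid plexus and ependyma varied from cage to cage. The choroid plexus list had a pooled median of 0.00, with 0.10 in males and -0.29 in females, and cage medians from -0.46 in female cage 3 to 0.59 in male cage 4. Of its 10 genes 9 were positive in males, with 2 higher at an unadjusted edgeR p under 0.05 (1.05% of all genes). In females 0 were positive and 6 were lower at that threshold (4.01% of all genes). Folr1, the folate receptor of this epithelium, was at 0.09 pooled, 0.37 in males and -0.34 in females, and Ttr, its thyroxine carrier, at 0.13, 0.31 and -0.18. The difference between the tables was not tested.

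Of 79 genes the study listed for females, chosen by the study on the female libraries used here and so no independent evidence of direction, 74 had a positive pooled log2 fold change, 5 had an unadjusted p under 0.05 and were higher (1.33% of all genes), and 1 was lower (1.46%). The count of 5 became 9 with the exon length trend removed, 2 with numbered cages only, 3 without the cage block, 21 without male cage 6, 15 without male cage 4, 8 without male cage 1, 3 without male cage 2 or female cage 1, 3 or 4, and 21 with equal weight of the tables. With the 9 numbered cages only, 35 of 79 were positive. The median was 0.04, from 0.18 in the female table and -0.04 in the male table. It was 0.02 without female cage 4, where 60 of 79 were positive, 0.03 without female cage 3, 0.07 without male cage 4, 0.08 without male cage 6 or with equal weight of the tables, and -0.003 with numbered cages only. Cacna1e, a calcium channel subunit, was at 0.04 ± 0.05 (SE) with a 95% interval of -0.07 to 0.16, Grin2b, an NMDA receptor subunit, at 0.07 ± 0.07 (-0.08 to 0.21), and Kmt2a, a histone H3 lysine methyltransferase, at 0.05 ± 0.06 (-0.08 to 0.18). The dominant mouse was higher in 4 of 4 female cages for each and in 4, 3 and 4 of 7 male cages. Tnr (0.01), Nlgn2 (0.04), Slc1a2 (0.03), Grin2a (0.05), Atp2b2 (0.02) and Atxn1 (0.06), genes of matrix, synapse, glutamate uptake, calcium export and transcription, had intervals that spanned 0 as well.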

How the data were processed

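The authors trimmed reads of stranded, rRNA-depleted libraries (cutadapt 1.15, bbduk) and used STAR 2.6.0a for mapping to mm10 (GRCm38) and featureCounts 1.6.2 for gene counts, per the labels and the paper's methods. The strand setting and the treatment of multi-mapped reads are not given in the sources used here. The deposited values are raw counts of 24421 genes. Gene coordinates are those given beside the deposited counts. GC content came from the longest GENCODE vM21 transcript of each gene, of the same build.

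Both tables were joined by gene and filtered by edgeR (minimum count 10, minimum total 15). The main fit was edgeR 4.0.16 (R 4.3.3), quasi-likelihood, TMM, with cage and rank as terms, Benjamini-Hochberg adjustment and a threshold of 0.05. Log2 CPM used a prior count of 2. Where edgeR raised a p to its Poisson bound, the standard error was set to match that p. The pairing comes from the library names: cage mates' deviations from group means correlated at 0.157 on average in males (other pairs -0.0261) and 0.0211 in females (-0.00703). All 54 pairs of libraries within a group differed beyond counting noise.

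Named genes were the 10 smallest p in each direction, those of 1 sign in all 11 cages, list members, genes the study names, and Xist and Ddx3y. Members and lists were chosen with earlier results of these data known; which list members serve as examples was chosen after their values were seen. Alternatives used DESeq2 1.42.0, limma-voom 3.58.1, other filters, size factors and priors, no block, equal weight of the tables, loess correction on exon length or GC content (span 0.3), each table alone, numbered cages only, and each cage left out. The red cell list, with 1 member tested, is not described.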

Additional observations from a re-analysis of the deposited data

Results flagged for a closer look

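Among 292 groups of values of the genes named above, 14 held a library far from the rest of its group by Dixon's criterion, which flags about 1 group in 20 by chance. In submissive females, Arc was high in replicate 3 (109 CPM), 1700047M11Rik low in replicate 2 (2.88 CPM), Lmo2 high in replicate 1 (18.7 CPM), Jun low in replicate 4 (29.4 CPM) and Igf2, a growth factor of meninges and vessels, low in replicate 2 (33.2 CPM). In dominant females, Tnfsf13b was high in replicate 1 (2.14 CPM), Oasl2 and Atxn1 were low in replicate 2 (2.59 and 179 CPM), and Hspa5, an endoplasmic reticulum chaperone, was low in replicate 4 (355 CPM). In dominant males, Lmo2 was low in replicate 2 (15.3 CPM), and Pcp2 (0.0 CPM) and Atp2a3 (5.83 CPM) were low in replicate 1, the library whose other cerebellar transcripts were low too. In submissive males, replicate 4 was high for Grin2b (391 CPM) and low for Homer3 (25.5 CPM).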

How the results depend on the processing

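No alternative fitted to both tables called a gene (0 with DESeq2, limma-voom, DESeq2 size factors, no filter, a mean count of at least 500, the robust prior, no replicate block, equal weight of the tables, both trend corrections, numbered cages only and every left-out cage), and the female table alone called 36. The number at an unadjusted p under 0.05 was 86 with DESeq2, 101 of 6265 genes with a mean count of at least 500, 290 without the block, 1537 in the female table alone, and 334 to 642 when 1 cage was left out, the highest without male cage 6. The 11 genes of 1 sign in all cages were 3 with a mean count of at least 500 and 15 to 27 over 10 cages. The median rank share of variance was 0.8% with a mean count of at least 500 and 1.14% to 1.55% without 1 cage. The rank share of the leading component was 2.91% without the block (p = 0.469, exact permutation) and 0.0369% to 13.8% without 1 cage, past the threshold in none. With exon length or GC content trends removed, 55.1% of genes lay above 0, against 52.0%, and the median gene moved by under 0.1.

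Of 73 named genes, 55 kept their sign in all alternatives. Egr4, at 0.00, was at -0.01 with DESeq2, -0.00 with DESeq2 size factors or without the filter, -0.03 in the male table alone, -0.07 with numbered cages only and -0.08 to 0.05 without 1 cage. In the male table alone Rbm3 was at 0.10, Insig1 at 0.04, Pclo and Bsn at -0.10, Snhg11 at -0.07, Fosb at -0.08, Cacna1e was at -0.06, Tnr -0.08, Nlgn2 -0.09, Slc1a2 -0.02, Grin2a -0.05, Grin2b -0.04, Atp2b2 -0.06 and Kmt2a -0.05. With numbered cages only, Rbm3 was at 0.01, Pclo at -0.04, Bsn and Snhg11 at -0.02, Cacna1e was at -0.01, Tnr -0.04, Nlgn2 -0.03, Grin2a -0.01, Atp2b2 -0.02 and Kmt2a -0.00. In the female table alone Homer3 was at 0.01, Folr1 at -0.34 and Ttr at -0.18. Without 1 cage, Rbm3 ranged from -0.08 to 0.01, Pclo from -0.01 to 0.09, Bsn from -0.00 to 0.15, Tnr ranged from -0.01 to 0.04, Nlgn2 from -0.01 to 0.11 and Atp2b2 from -0.01 to 0.05. The causes were not tested.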
